A study of Drosophila melanogaster with 6 samples.

Results

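The genes described here encode parts of the mitotic spindle, the kinetochore and the centrosome. The list holds 43 genes, chosen by name from their known roles and matched to the array by current symbol. The choice was made with earlier results of these data known. A probe set assigned to exactly 1 gene was found for 34 of them, out of 11983 genes with such a probe set on the array. Another, cana, shares its only probe set with CG33695. No probe set was matched to pav, Klp3A, polo, aurA, BubR1, ana1, cnn and asp, which are not analysed here. By role the measured genes are 6 motors, 3 members of the chromosomal passenger complex, 8 checkpoint genes, 7 kinetochore genes, 6 centrosome genes and 4 genes of spindle microtubules and the midzone.

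The data come from Drosophila S2 cells, an embryo-derived line that grows in culture and resembles blood cells. No genotype difference, transgene or synchronization is given for any group. Cells received 0.1 mM protocatechuic aldehyde (PA), a small phenolic aldehyde, for 2 h (3 samples), or vehicle, whose composition the labels do not give (3 samples). All cells were kept in Schneider's medium with insulin and fetal bovine serum. RNA of each sample was hybridized to 1 Affymetrix Drosophila genome 2.0 array, so 6 arrays were compared. The deposited values are MAS5 signals, linear intensities with 1 value for each probe set. The labels do not say whether the cultures of a group were grown and treated apart, and the p-values therefore reflect array-to-array spread that may be purely technical.

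During mitosis a bipolar array of microtubules, the spindle, captures chromosomes at kinetochores, protein assemblies built on centromeric chromatin. Kinesin motors push spindle poles apart, shorten microtubules and move chromosomes, while the spindle checkpoint holds back anaphase until every kinetochore is attached. Centrosomes, each built around centrioles, nucleate microtubules, and the midzone of the anaphase spindle directs the contractile ring that divides the cell. In cycling animal cells many of these transcripts accumulate towards G2 and mitosis, and S2 cells have long been used to study spindle assembly by RNA interference.

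After 2 h of PA, 15 of the 34 measured genes were lower than with vehicle and 0 were higher, at an adjusted p under 0.05 (limma on log2 signals, adjusted over all 18769 tested probe sets). Of all genes on the array, 3.61% were called lower and 2.58% higher. The lower genes were the motors Klp67A, ncd, Klp61F and cmet, the passenger genes borr and Incenp, the checkpoint gene mad2, the kinetochore genes Cenp-C, Spc105R, Ndc80 and Nuf2, the centriole kinase gene SAK, and pbl, tum and feo of the midzone. Their falls were small, from -11.0% to -31.3% of the mean vehicle signal, with a median log2 change of -0.34. In bulk RNA, fewer cells in G2 or mitosis and less RNA of these genes per cell cannot be told apart. At an unadjusted p under 0.05, 24 of the 34 were lower and 0 were higher, against 12.5% and 7.67% of all genes. Without a trend of the variance on signal, limma called 0 of the 34 lower (lowest adjusted p = 0.228) and 0.0% of all genes, while 17 of the 34 were lower and 0 higher at an unadjusted p under 0.05, against 6.22% and 3.81% of all genes. The t-test that the study's methods describe gave 19 lower and 0 higher genes at p under 0.05, without adjustment, against 9.67% and 7.12% of all genes, and 0 after adjustment.

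The separation of the arrays was wider than the calls. For 25 of the 34 genes every PA array lay below every vehicle array, and for 0 did every PA array lie above. The former pattern was found for 14.3% of all genes and the latter for 10.1%. The 25 include all 15 genes called lower. An exact 2-sided permutation test of a single gene gave p = 0.1 for each of these 25 genes. With 3 arrays in each group no smaller p can occur, and 0.05 is out of reach of this test. The median within-group SD of the measured genes was 0.07 on the log2 scale.

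**Figure D1:**
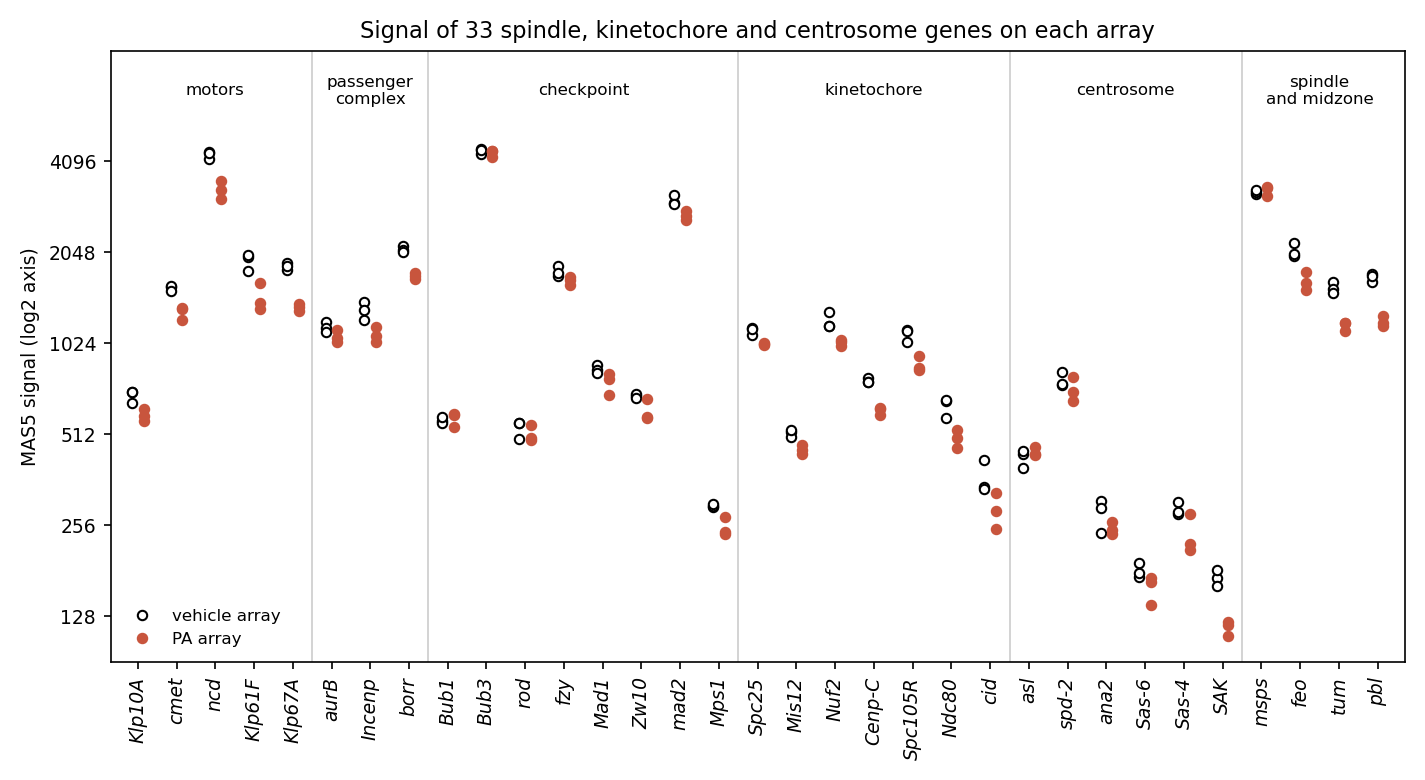
MAS5 signal (log2 axis) of the 33 measured genes with a mean signal above the median of the array, on each of 3 vehicle arrays (open) and 3 PA arrays (filled), by role. The PA points lie below the vehicle points for 25 genes, and signals of different probe sets are not comparable with each other.

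Signal changes on these arrays depended on brightness, so genes of the same brightness serve as the reference. All measured genes but Klp59C lie in the upper 50% of mean signal, between percentiles 64.6 and 96.0. Over the 5023 genes of the array in the same signal range, 8.4% were called lower and 2.91% higher, with a median log2 change of -0.05. In that range 27.7% of genes had every PA array below every vehicle array, and 26.4% were lower at an unadjusted p under 0.05. The 34 genes had a median log2 change of -0.22, against -0.02 over all genes. For each gene the median over its neighbours in mean signal, 250 genes on each side, was also taken, and 31 of the 34 lay below it, with a median difference of -0.16. The genes of the array were also split into 10 classes of equal size by mean signal. Of the 11 mitotic genes in class 9 from the dimmest, 9 were called lower, against 9.77% of all genes in that class. In classes 6, 7 and 8 the lower genes were 1 of 5, 1 of 6 and 2 of 7, against 2.42%, 8.60% and 11.6% of all genes there. In the brightest class, where 3.59% of all genes were lower and 17.4% higher with a median log2 change of 0.05, ncd and mad2 were called lower among 4.

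**Figure D2:**
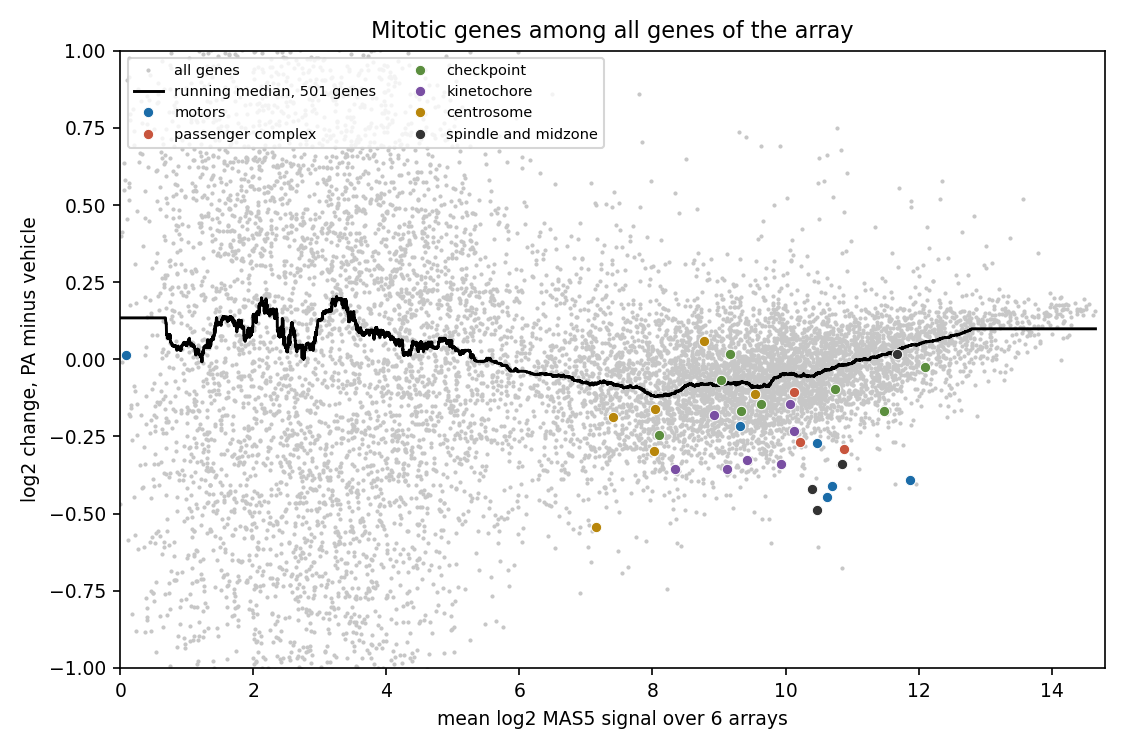
Log2 change (PA minus vehicle) against mean log2 signal for all genes (grey; changes beyond 1 in size and means below 0 are not drawn), with the running median over genes nearest in signal (line) and the mitotic genes coloured by role. Most mitotic genes lie under the line, whose own value changes with signal.

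Array by array, the shift was present in each PA sample. The median log2 deviation of the 33 brighter genes from their vehicle mean was 0.03, -0.001 and -0.03 on vehicle arrays 1 to 3. On PA arrays 1 to 3 it was -0.22, -0.18 and -0.25. For all genes of the same signal range the PA arrays gave -0.05 each. Between the roles the PA medians differed, from -0.49 to -0.29 for the 5 brighter motors and from -0.15 to -0.07 for the checkpoint genes; no test of this difference was made.

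**Figure D3:**
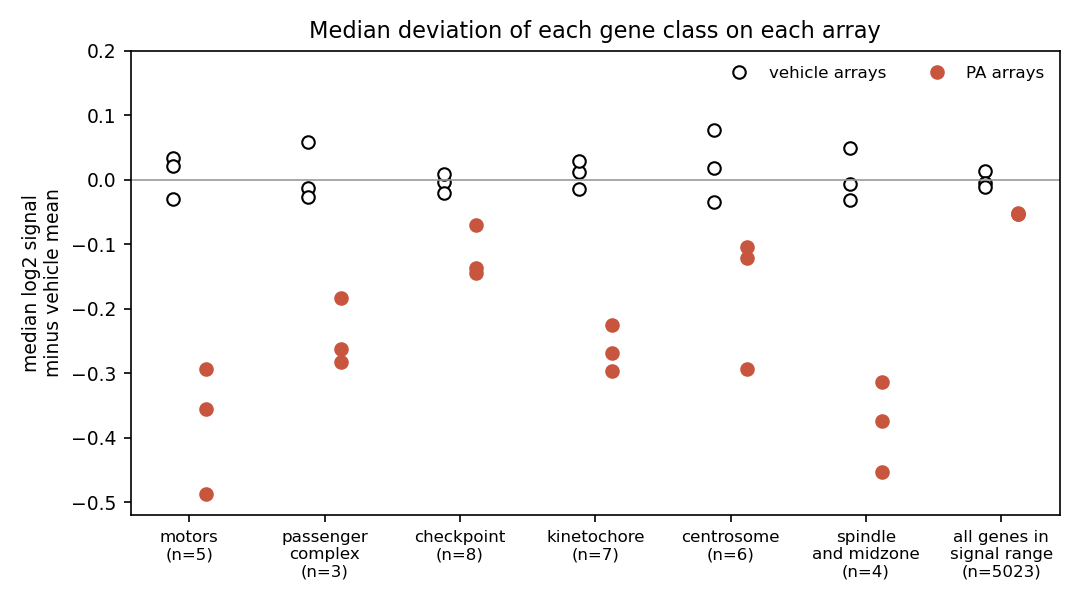
Median deviation of log2 signal from the vehicle mean on each array, for each role and for the 5023 genes of the same signal range (open: vehicle arrays; filled: PA arrays). Every PA median of every role lies below the corresponding vehicle medians.

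Of the 6 measured motors, 4 fell, and the median log2 change was -0.33. Kinesins of these families set spindle length and chromosome position. Klp67A, a kinesin that limits microtubule length at plus ends, had signals of 1878, 1790.3 and 1836 on vehicle arrays 1 to 3 and of 1308, 1382 and 1351 on PA arrays 1 to 3 (probe set 1631630_at). The groups were far apart: the signal fell by 26.6%, and the log2 change was -0.45 (standard error 0.04, adjusted p = 3.73e-05). ncd, a motor that moves towards minus ends and focuses spindle poles, gave 4392, 4172 and 4359 with vehicle and 3073, 3514 and 3280.1 with PA (1637264_at). The log2 change was -0.39, with a standard error of 0.05 and an adjusted p of 0.000289, although genes of its brightness had a median of 0.04. For Klp61F, the motor that slides antiparallel microtubules apart to keep the spindle bipolar, vehicle signals were 1973, 2007 and 1773 and PA signals 1327, 1387 and 1619 (1624620_at). All PA values were below all vehicle values, but PA array 3 stood closer to vehicle than the others, and the log2 change was -0.41 (standard error 0.07, adjusted p = 0.00365).

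The change of cmet, 1 of the fly counterparts of the kinetochore motor CENP-E, was smaller. Its signals were 1569, 1584 and 1528 with vehicle and 1335, 1324 and 1220.2 with PA (1624191_at), a log2 change of -0.27 (standard error 0.05, adjusted p = 0.00459). Klp10A, a kinesin that depolymerizes microtubules at poles and centromeres, had 704, 705 and 651 with vehicle and 589, 619.8 and 564 with PA (1634393_s_at). Its groups did not overlap either, but it did not pass the test (log2 change -0.22, standard error 0.06, adjusted p = 0.0546). It did pass when the lower 50% of signals was left out (adjusted p = 0.0348), with sample number as a block (adjusted p = 0.048; 3.75% of all genes were lower in that fit) and without vehicle replicate 3. Klp59C, a related depolymerase, had signals of 0.795 to 1.68 on all 6 arrays, at percentile 0.794 of mean signal, and the 95% confidence interval of its log2 change was -1.38 to 1.41.

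The chromosomal passenger complex corrects faulty attachments and later acts at the midzone. Of its 3 measured genes, borr and Incenp fell, and aurB, which encodes the kinase itself, did not pass. borr, the fly borealin, gave 2151, 2075 and 2056 with vehicle and 1673, 1713 and 1746 with PA (1634359_a_at). The PA arrays were close together and well below, with a log2 change of -0.29 (standard error 0.04, adjusted p = 0.00099). Incenp, the scaffold that binds and activates the kinase, had 1397, 1225 and 1316 with vehicle and 1155, 1078 and 1034 with PA (1632458_at), a fall of 17.0%. Its log2 change was -0.27 (standard error 0.06, adjusted p = 0.0158), and the call was lost without vehicle replicate 1, PA replicate 2 or PA replicate 3. The aurB signals of 1204, 1149 and 1117 with vehicle and 1129, 1032 and 1066 with PA overlapped (1624154_at). Its log2 change was -0.11 with a 95% confidence interval of -0.21 to 0.004.

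Of the 8 measured checkpoint genes, 1 fell and 7 did not pass. Of all genes in the signal range of the 33 brighter genes, 8.4% were called lower. The median log2 change of the checkpoint role was -0.12, against -0.08 for genes of the same brightness. mad2, whose product binds and blocks the activator of the anaphase-promoting complex, had 2975, 3169 and 2954 with vehicle and 2693, 2792 and 2610.2 with PA (1640938_at). It fell by 11.0%, with a log2 change of -0.17 (standard error 0.04, adjusted p = 0.0331), and the call was lost without any single array other than vehicle replicate 3. The call was also lost with arrays centred on their median or on their 75th percentile, and with either offset. Bub3, which brings Bub kinases to the kinetochore, had 4489, 4319 and 4458 with vehicle and 4219, 4410.0 and 4419.7 with PA (1637317_at). These values overlap, and the log2 change was -0.02, with a 95% confidence interval of -0.10 to 0.05.

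The other 6 checkpoint genes had log2 changes from -0.24 for Mps1, the kinase that starts checkpoint signalling, to 0.02 for Bub1, a kinase that phosphorylates centromeric chromatin. Zw10 and rod are subunits of the complex that brings dynein to kinetochores. They had log2 changes of -0.17 (adjusted p = 0.18) and -0.07 (adjusted p = 0.721). Mad1, the kinetochore partner of mad2, had -0.15, and fzy, the activator of the anaphase-promoting complex that mad2 inhibits, had -0.10. For Mps1, Zw10, Mad1 and fzy every PA array was below every vehicle array although none passed. This pattern was found for 27.7% of all genes in the signal range of the 33 brighter genes. The other probe sets of fzy were dim, with mean vehicle signals of 14.2 and 14.7, and their values overlapped.

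All 7 kinetochore genes were measured, and for all 7 every PA array was below every vehicle array. Of all genes in the signal range of the 33 brighter genes, 27.7% had this pattern. The median log2 change of the kinetochore role was -0.33. Of the 7 genes, 4 fell, and cid, Spc25 and Mis12 did not pass. Cenp-C, the protein that links centromeric nucleosomes to the outer kinetochore, had 787, 760.1 and 761 with vehicle and 594, 626 and 619 with PA (1629217_at). The gap between the groups was many times the spread within them, and the log2 change was -0.33 (standard error 0.05, adjusted p = 0.00295). Spc105R, the platform for checkpoint proteins, gave 1130.3, 1126 and 1037 with vehicle and 834, 845 and 925 with PA (1628318_at), with a log2 change of -0.34 (standard error 0.06, adjusted p = 0.00364). PA array 3 was again the nearest to the vehicle arrays.

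Ndc80 and Nuf2 form the arm that grips microtubules. Ndc80 had 578, 660.4 and 663 with vehicle and 527, 459.9 and 497 with PA (1630409_at), a log2 change of -0.36 (standard error 0.07, adjusted p = 0.0123). Nuf2 had 1167, 1294 and 1165 with vehicle and 1033, 1048 and 1002 with PA (1631363_at), a log2 change of -0.23 (standard error 0.05, adjusted p = 0.0197). Each of these calls was lost without vehicle replicate 2 or PA replicate 2, and that of Nuf2 also without PA replicate 1 or 3. Spc25, of the same complex, had 1089.5, 1148 and 1138 with vehicle and 1020.5, 1006 and 1026 with PA (1628463_at), with a log2 change of -0.15 (adjusted p = 0.0923).

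Mis12, which joins this arm to the centromere, had a log2 change of -0.18 (adjusted p = 0.12). For cid, the centromeric histone H3 variant, the log2 change was -0.36, as large as for Ndc80, but with a standard error of 0.11 (adjusted p = 0.0828). Its vehicle signals were 419, 343 and 338 and its PA signals 327, 284 and 249 (1625258_at). Array 1 of each group was the highest, and cid passed the test with sample number as a block (adjusted p = 0.0222) and without PA replicate 1.

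**Figure D4:**
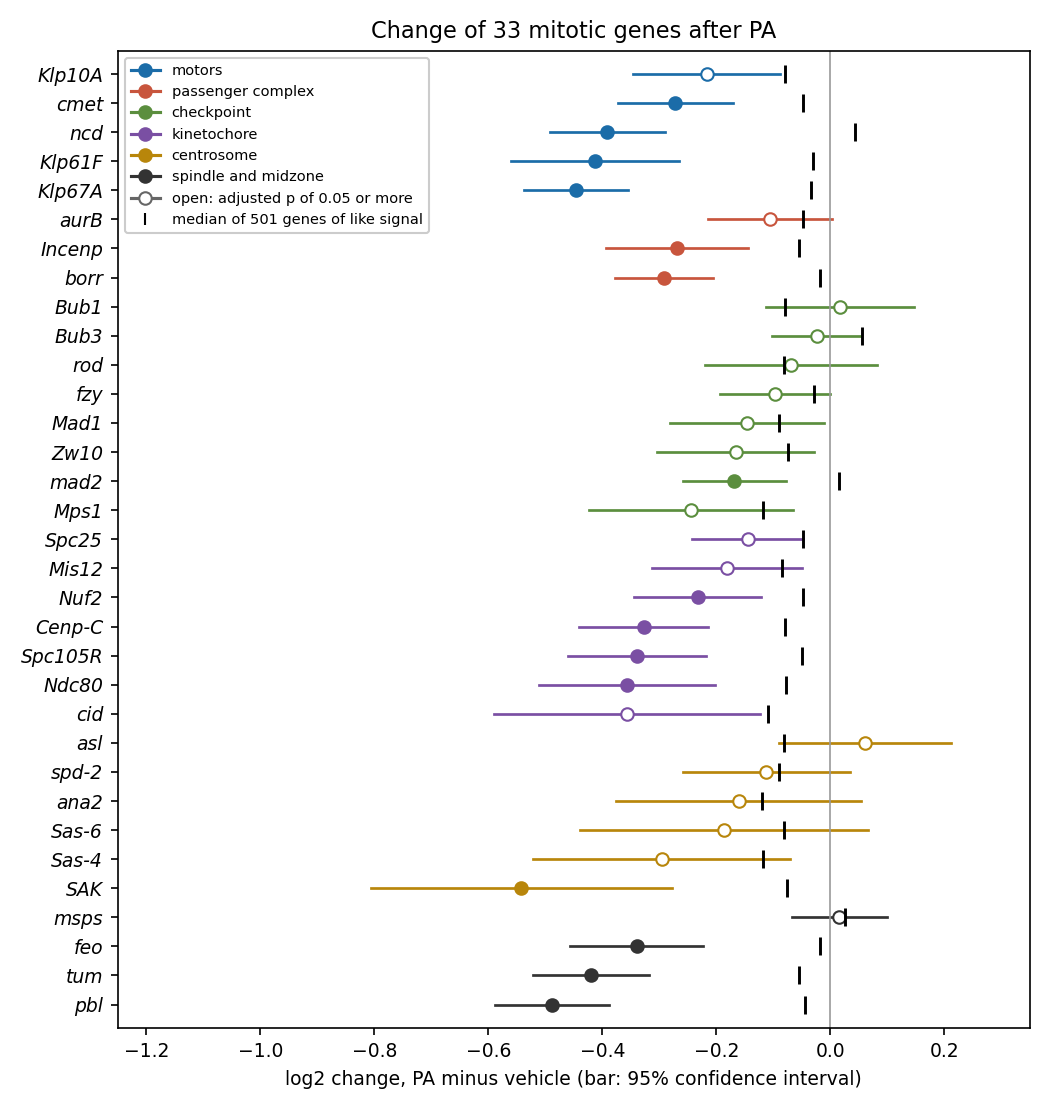
Log2 change (PA minus vehicle) of the 33 brighter genes with 95% confidence intervals from limma, filled where the adjusted p is under 0.05, and the median of the genes nearest in signal (ticks). Filled points range from -0.54 for SAK to -0.17 for mad2, and all lie left of their ticks.

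Among the 6 measured centrosome genes only SAK was called lower, against 8.4% of all genes in the signal range of the 33 brighter genes. SAK, the Polo-like kinase that starts centriole duplication, had 170.5, 181 and 161 with vehicle and 122, 119.9 and 109.8 with PA (1629805_at). This was a fall of 31.3%, the largest among the 15, with a log2 change of -0.54 (standard error 0.12, adjusted p = 0.0204). It was also the dimmest of the 15 and its call did not hold without vehicle replicate 1 or 2, or without PA replicate 2 or 3. spd-2, which recruits pericentriolar material, gave 821, 747 and 753 with vehicle and 704, 789 and 659 with PA (1631543_at). The arrays overlapped and the log2 change was -0.11, with a 95% confidence interval of -0.26 to 0.03. The centriole assembly genes Sas-4, Sas-6 and ana2 had log2 changes of -0.30, -0.19 and -0.16 with standard errors of 0.10 to 0.12. None passed the test, though Sas-4 did without PA replicate 3 (adjusted p = 0.0414). For Sas-4 and Sas-6 every PA array was below every vehicle array, while the arrays overlapped for ana2. Such separation was found for 27.7% of all genes in the signal range of the 33 brighter genes. asl, the scaffold that recruits the SAK kinase to centrioles, had 0.06 (adjusted p = 0.762). The centrosome role had a median log2 change of -0.17, against -0.09 for genes of the same brightness.

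Of the 4 measured genes of spindle microtubules and the midzone, 3 fell, and the median log2 change was -0.38. pbl encodes the exchange factor that activates Rho1 at the cell equator, and its signals were 1736, 1629 and 1714 with vehicle and 1164, 1197 and 1258 with PA (1623785_a_at). It fell by 28.7%, with a log2 change of -0.49 (standard error 0.05, adjusted p = 3.59e-05), the smallest adjusted p among the 34. tum, the GTPase-activating subunit of centralspindlin that binds the pbl product, had 1629, 1549.9 and 1504 with vehicle and 1122, 1189 and 1189.6 with PA (1634690_at). It fell by 25.3%, with a log2 change of -0.42 (standard error 0.05, adjusted p = 0.000163). feo, the fly PRC1 that bundles antiparallel microtubules in the midzone, had 2188, 1992 and 2022 with vehicle and 1532, 1757 and 1615 with PA (1637475_at). All 3 PA values were below the vehicle values, with a log2 change of -0.34 (standard error 0.05, adjusted p = 0.00282).

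The remaining gene, msps, a microtubule polymerase that also works outside mitosis, had 3186, 3248 and 3286 with vehicle and 3361, 3338 and 3135 with PA (1628172_at). The groups overlapped and the log2 change was 0.02, with a 95% confidence interval of -0.07 to 0.10. That interval does not reach the log2 changes of pbl, tum and feo, but the difference between these genes was not tested.

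Scaling bears on the size of these changes. Centring each array on its 75th percentile gave 12 lower genes of the 34 (1.34% of all genes), quantile normalization 11 (1.66%) and cyclic loess 12 (1.69%), and each of these was among the 15. Incenp, Ndc80, Nuf2 and SAK were lost after quantile normalization. Klp61F, Klp67A, ncd, cmet, borr, Cenp-C, Spc105R, tum, pbl and feo, 10 genes in all, were called lower under every scaling, offset, filter and left-out array tried with a variance trend.

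**Figure D5:**
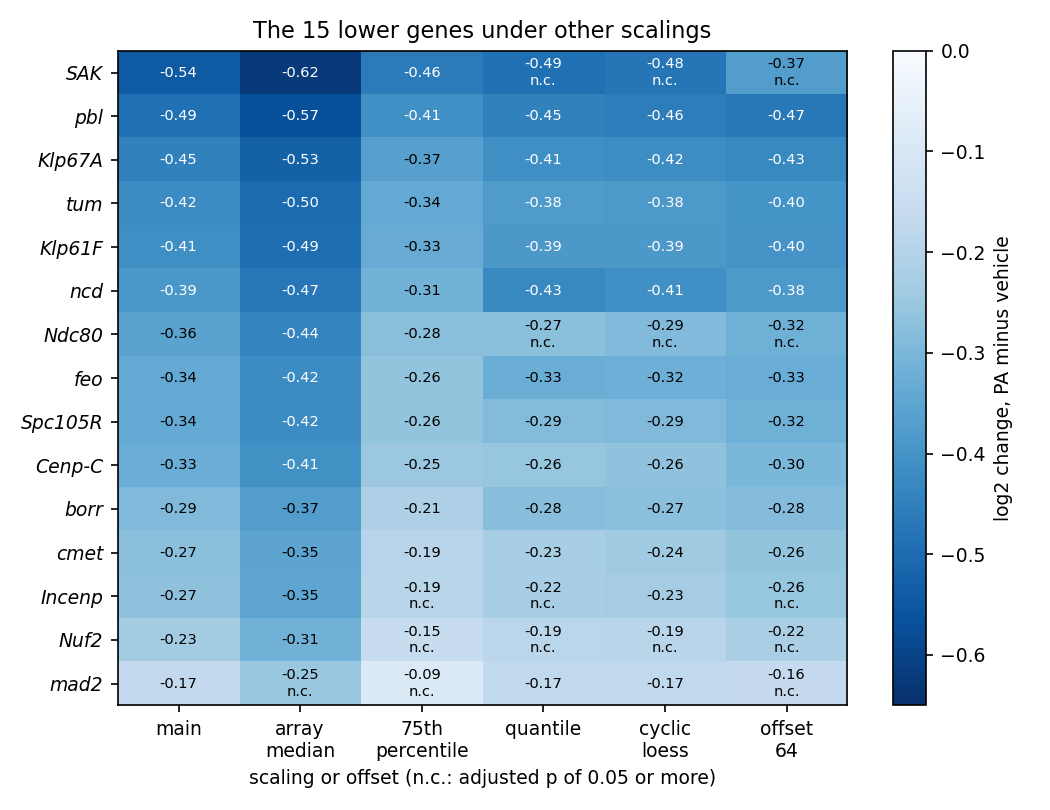
Log2 change (PA minus vehicle) of the 15 lower genes with the signals as deposited (main), after other scalings and with 64 added to each signal (n.c. marks an adjusted p of 0.05 or more). All values stay below 0, and 5 of the 15 genes lose the call with the offset of 64.

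Other mitotic genes, from 7 lists chosen by function, were examined in the same way. These lists too were chosen with earlier results of these data known, so their counts are a description and not an independent test. Of 79 measured genes (98 listed), 20 were lower and 2 higher, against 3.61% and 2.58% of all genes, and their median log2 change was -0.15. The median for genes of the same brightness was -0.08. In the signal range of the 33 brighter genes above, 8.4% of all genes were lower and 2.91% higher. Some of the 79 lie outside that range. Of the 79, 56 lay below the median of their neighbours in signal, with a median difference of -0.08. With quantile normalization 9 of the 79 were lower, against 1.66% of all genes in that fit, and 0 higher. Beside the midzone genes, the contractile ring genes scra (anillin) and dia (a formin) fell by 0.42 and 0.35 on the log2 scale. The actin regulators tsr (cofilin) and chic (profilin) of the same list rose, with log2 changes of 0.16 and 0.14; at their brightness the median of all genes was 0.10, neither call held after quantile normalization, and chic was named after its value was seen.

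Of 5 measured genes of mitotic entry and exit, the mitotic cyclin genes CycB and CycB3 had log2 changes of -0.41 and -0.23, and tws, which encodes a phosphatase subunit, had -0.19; all 3 passed the test. Of 14 measured genes of the anaphase-promoting complex and sister separation, 3 fell. They were pim, the securin, with a log2 change of -0.29, the separase gene Sse with -0.41 and fzr, the activator of the complex after mitosis, with -0.38. The share of all genes called lower was 8.4% in the signal range of the 33 brighter genes.

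Among 12 condensin and cohesin genes SMC2, Cap-D2 and glu, all of condensin, fell by 0.35, 0.32 and 0.21 on the log2 scale. Of 15 genes of the gamma-tubulin ring and augmin, the lower ones were dgt6, dgt3 and dgt5, all augmin subunits that branch microtubules inside the spindle, with log2 changes of -0.37, -0.37 and -0.22. Other kinesins gave 2 lower genes of 11, nod, a chromosome-bound kinesin, with -0.50, and Klp98A with -0.27. Of 14 other spindle and centriole genes, 4 fell, among them Plp (-0.38), which anchors pericentriolar material, Cep135 (-0.39) and Patronin (-0.29), which protects microtubule minus ends. No gene of these last 4 lists was called higher. For all genes in the signal range of the 33 brighter genes, the shares were 8.4% lower and 2.91% higher.

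Several of these calls rested on the scaling and on single arrays. Those of dgt3, dgt5, Sse, fzr, glu, Cap-D2, CycB3, Klp98A, Patronin and Cep135 were lost after quantile normalization and also without at least 1 of the 6 arrays. Those of dgt6, pim, SMC2, CycB, nod, scra, dia and Plp held under every scaling and every left-out array, and that of tws was lost with either centring. The call of Plp was lost, however, with the mean over the probe sets of the gene. Without a variance trend none of them was called.

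The arrays were checked for cell identity and for whole-array differences. Of 10 blood cell markers 9 lay in the upper 50% of signal, and their summed signal was 33362 to 34636 with vehicle and 34010.2 to 36070.2 with PA. Hml and NimC1 were higher with PA by log2 changes of 0.14 and 0.15. At their signals the median log2 change of neighbouring genes was 0.10 and 0.06, and 30.7% and 15.2% of them were called higher. srp and Ppn were lower (-0.15 and -0.31). Genes neighbouring these 2 in signal had medians of 0.07 and -0.08, and 1.80% and 10.2% of them were called lower. Of 12 measured markers of neurons, glia, muscle, fat body and gonads, 4 also lay in the upper 50% of signal. Of the 12, 0 passed the test from limma, 1 had an unadjusted p under 0.05, and their median signal was 14.6. Their summed signal was 429 to 479 with vehicle and 428 to 446 with PA. The neuron marker elav had a mean vehicle signal of 183, above the 147 of the blood cell marker Pxn. On every array the mean signal trimmed by 2% at each end was 500, while the 75th percentile was 515 to 534 with vehicle and 492 to 495 with PA. The part of these array differences in the falls was not tested.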

How the data were processed

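The authors hybridized RNA of 3 PA and 3 vehicle samples, each to its own Drosophila genome 2.0 array. They deposited 1 linear intensity, the MAS5 signal, for each probe set and array. MAS5 is named in the submitters' processing notes, and its version is not given in the sources used here. Every array had the same trimmed mean, so signals were taken to log2 without an offset or further scaling. Of 18952 probe sets, 183 controls were left out. Gene names came from the platform annotation, updated through gene identifiers (13544 of 13647 probe sets with 1 gene), and the brightest probe set stood for a gene. No position is given, since the annotation names no build, and promoter sequences were not analysed here.

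PA and vehicle were compared with limma 3.58.1 in R 4.3.3 (lmFit, eBayes with a variance trend, Benjamini-Hochberg adjustment over 18769 probe sets); every adjusted p comes from it unless another setting is named. Exact permutation tests used scipy 1.17.1 in Python 3.11.15. The number of arrays limits the precision. Alternatives were other scalings, offsets, a filter on dim probe sets, other variance models, a block for sample number, other choices of probe set, the methods' t-test and leaving out each array. Values on every array are given for up to 4 called genes of each role with the smallest p and for the brightest gene not called, and up to 3 called genes of each other list are named; cid, and the values of Klp59C, go beyond this rule and were added after their values were seen. The genes and lists were chosen with earlier results of these data known.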

Additional observations from a re-analysis of the deposited data

Results flagged for a closer look

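Probe set 1629720_s_at, which the annotation assigns to both cana and CG33695, was outside the comparison because it cannot be credited to either gene. cana is the second fly counterpart of CENP-E, close in sequence to cmet. Its signals were 501.1, 516 and 486 with vehicle and 352, 379.6 and 389 with PA, so the groups did not overlap. The log2 change was -0.425 (standard error 0.07, adjusted p = 0.00263). Which of the genes it reflects was not tested.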

How the results depend on the processing

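The 15 lower genes became 10 to 16 when single arrays were left out, the lowest without PA replicate 2. They became 10 to 17 over the scalings, offsets, filter, array weights, robust variances, probe set choices and the replicate block. Of all 18769 tested probe sets, 529 were lower in the main fit and 350 with median centring. Centring on the 75th percentile gave 211, quantile normalization 266 and cyclic loess 269. The share of all genes was not taken for left-out arrays, offsets, filter, array weights, robust variances or probe set choices. Settings that moved a count by over 1.5 times were limma without a variance trend (0 lower) and the methods' t-test with 0 lower under its fold limits and 0 lower after Benjamini-Hochberg adjustment (19 at its p under 0.05). No fall among the 34 reached those fold limits. The count of higher genes was 0 under every setting run. The median log2 change of the 34 genes was -0.22, and -0.31 with arrays centred on their medians, -0.14 with centring on the 75th percentile and -0.16 relative to genes of the same brightness, a setting chosen after seeing the data. It was -0.25 to -0.21 with single arrays left out. Centring changes every gene by the same amount. The median over all genes was -0.02 in the main fit, -0.10 with median centring and 0.06 with centring on the 75th percentile. Over all probe sets 55.2% of calls were lower; this share was 85.8% with median centring and 17.6% with centring on the 75th percentile.

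For the other mitotic lists the 20 lower genes became 10 with centring on the 75th percentile (1.34% of all genes). They became 9 after quantile normalization (1.66%) and 10 with cyclic loess (1.69%). Without a variance trend they were 0, and 22 at an unadjusted p under 0.05 (6.22% of all genes). The methods' t-test gave 0 with fold limits and 1 after adjustment. With single arrays left out they were 11 to 14, and the share of all genes was not taken. They were 13, 12 and 13 without vehicle replicates 1, 2 and 3, and 13 and 11 without PA replicates 2 and 3. The 2 higher genes became 1 with an offset of 16, 0 with median centring, quantile normalization, cyclic loess, an offset of 64, no variance trend and both stricter forms of the methods' t-test, and 0 to 2 with single arrays left out (1 without vehicle replicate 1 or 2, 0 without PA replicate 1 or 2). Over the single genes of the list, 618 of 679 checks kept the call, 51 lost a call, 10 gained one and 0 reversed a called change. A change of sign in a gene called by neither fit counted as kept, as for Klp59C (log2 change -0.19 to 0.35). Over the genes named from the other lists 290 of 400 checks kept the call and 110 lost it. In both tallies the methods' t-test counted at its unadjusted p, the other fits at the adjusted p. The gains of Mps1, Spc25 and Mis12 came only from that t-test. With the sample number as a replicate block, 17 of the 34 were lower (3.75% of all genes), Klp10A and cid being added. Between same-numbered vehicle and PA arrays the residuals correlated at -0.001, 0.02 and -0.002, so the numbers were not taken to pair the arrays. At low signal little can be measured: the standard error was 0.65 for Klp59C and 0.04 to 0.12 for the other 33 genes. The cause of the other shifts between settings was not tested.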
